A study of Mus musculus with 10 samples.

Results

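The glucocorticoids VSGC12 and VSG22 appear in the labels under code names, with no account of how their structures differ. Their readouts were compared in the mouse line RAW264.7, which has macrophage character, on the 2 arrays labelled VSGC12 and the 2 labelled VSG22, which are 4 of the 10 arrays of the series. All 55681 distinct non-control probes of the array entered. The other groups were EtoH, Dex (dexamethasone) and FF (fluticasone furoate), with 2 arrays each, and served mainly to estimate the spread. In the VSG22, VSGC12, Dex and FF groups the glucocorticoid was given at 100 nM, lipopolysaccharide (LPS), an outer-membrane glycolipid of bacteria to which macrophages respond with inflammation, followed 1 h later (1 µg/ml), and cells were harvested for RNA at 16 h. EtoH is read as solvent with no glucocorticoid; whether its cells also had LPS is not given. The labels do not say whether replicates were separate cultures, so the p-values measure only the spread between these arrays, which may be technical.

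Glucocorticoids bind the glucocorticoid receptor (Nr3c1), a transcription factor that moves to the nucleus, induces genes such as Fkbp5 and Tsc22d3, and lowers many cytokine, chemokine and interferon-response genes in activated macrophages. Fkbp5 encodes a co-chaperone that reduces the receptor's affinity for hormone, and Tsc22d3 encodes the anti-inflammatory protein GILZ. Compounds that act through one receptor can share most targets and still differ in how strongly single genes respond.

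Levels below are log2 processed signals relative to the 75th percentile of their array, and differences are VSGC12 minus VSG22 on that scale. Of 26 macrophage identity genes 25 were measured, all well above background on the 4 arrays. Of the markers of other cell types, 0 of 8 for B cells, 4 of 10 for T cells, 4 of 13 for neutrophils and mast cells, 2 of 9 for fibroblasts and 1 of 8 for epithelium were measured. The 4 of T cells and the 4 of neutrophils and mast cells were also well above background on the 4 arrays. Among them Cd4 stood at 5.09 and 4.94 with VSG22 and at 5.34 and 5.73 with VSGC12. Elane stood at 4.95 and 5.28 with VSG22 and at 5.95 and 6.17 with VSGC12. The SD of the difference between replicates over genes was 0.33 for VSG22, 0.41 for VSGC12, 0.33 for EtoH, 0.37 for FF and 0.63 for Dex. Replicate 1 of every group was on one slide and replicate 2 on the other, so each slide gives its own VSGC12 minus VSG22 value, with an SD over genes of 0.36 on slide 1 and 0.45 on slide 2.

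The first question was whether any gene differed between the 2 compounds at the same dose and time. No gene was called: 0 of 18040 genes (0%) passed an adjusted p of 0.05 in limma with Benjamini-Hochberg adjustment, the smallest adjusted p was 0.086 and the third smallest 0.56. The count depended on the Dex arrays: without either of them 1 gene, Pramel34, was called. It depended more on the scaling: with the array median subtracted 11 genes were called (6 higher), with a smallest adjusted p of 0.0011. Several of the 11, such as Tsnaxip1 and LOC100048396, were not well above background on either array of 1 compound. In that scaling 576 genes had an unadjusted p under 0.05. With the 75th percentile that last count was 1240 genes (6.87%), 572 with VSGC12 higher (3.17%) and 668 with VSGC12 lower (3.7%). The median standard error was 0.13, and the median half-width of the 95% interval was 0.31, which is 1.24-fold. For 15042 genes (83.4%) the interval lay wholly within 2-fold in either direction. The missing calls therefore do not show that the compounds act alike for every gene, but for most genes a 2-fold difference lay outside the interval. For scale, 5440 genes (30.1%) were called for VSG22 against EtoH and 6279 (34.8%) for VSGC12 against EtoH; these comparisons share the EtoH arrays.

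Across 18001 genes with values on both slides, the difference had the same sign on both for 63.7%. These genes are not independent replicates. The correlation of slide 1 and slide 2 values was 0.26.

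**Figure D1:**
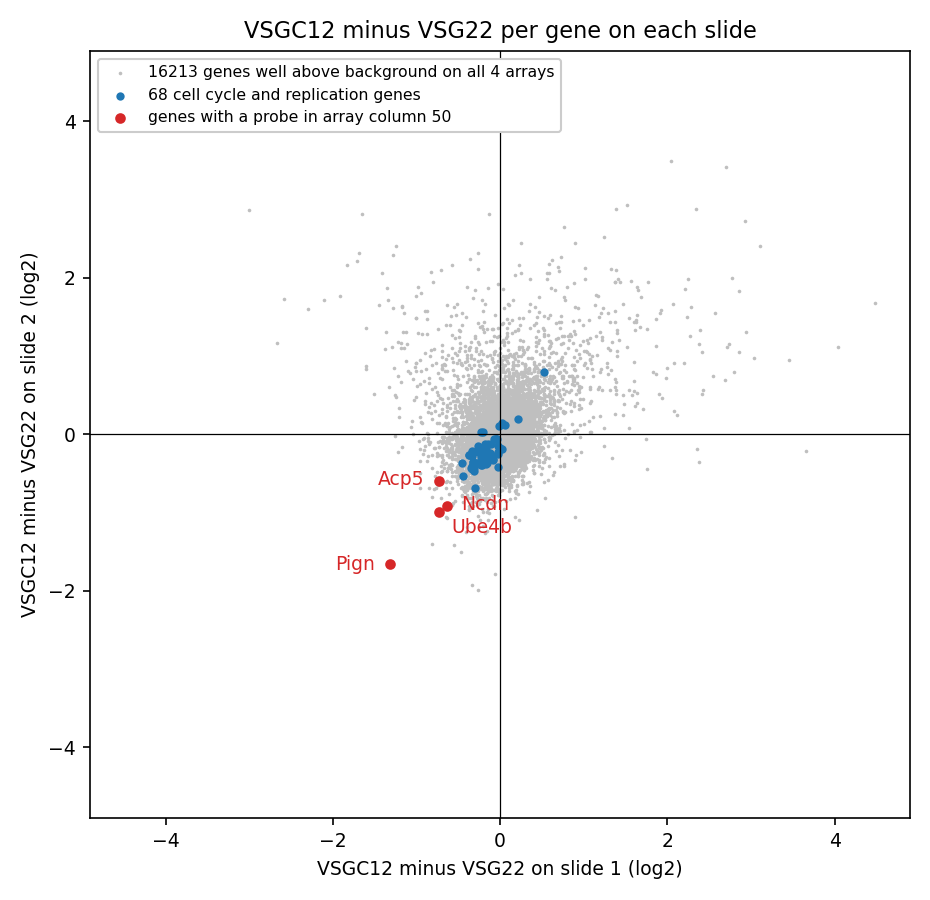
Each point is a gene, with VSGC12 minus VSG22 (log2) on slide 1 across and on slide 2 up. Cell cycle and replication genes (blue) lie mostly below 0 on both slides, Pign, Ncdn, Ube4b and Acp5 (red) are the low genes whose probe lies in array column 50, and the grey points far to the upper right are genes with a difference of at least 2-fold on both slides.

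Genes known to respond to glucocorticoids came first. Since it is not given whether EtoH cells had LPS, glucocorticoid and LPS cannot be told apart in any comparison with EtoH. Fkbp5 stood at 5.16 and 4.92 with VSG22 and at 5.25 and 5.07 with VSGC12, against 2.92 and 2.80 with EtoH. The groups overlapped, and the difference was 0.12 ± 0.13 (SE), with a 95% interval from -0.19 to 0.44. Hp, which encodes haptoglobin, the plasma binder of free hemoglobin, stood at 2.77 and 2.56 with VSG22 and at 2.81 and 2.62 with VSGC12, against -2.73 and -2.68 with EtoH. Its difference was 0.05, within an interval from -0.19 to 0.30, so 2 genes that stood over 2 log2 units above EtoH with both compounds sat at the same levels within their spread.

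Among the 30 measured members of the 36 listed receptor-induced genes, 0 were called. At an unadjusted p under 0.05, 0 of the 30 had VSGC12 higher and 1 lower (3.33%, beside 3.7% of all genes). Their median difference was -0.01, beside -0.02 over all genes. The member with the smallest p was Serpina3g, a serine protease inhibitor of activated leukocytes. It stood at 0.14 and -0.11 with VSG22 and at -0.56 and -0.46 with VSGC12, with -6.21 and -5.77 in EtoH, so the compounds' arrays did not overlap. The difference was -0.53 ± 0.16 (unadjusted p = 0.014 in limma, adjusted p = 0.72). Ddit4, an inhibitor of mTORC1 signalling, differed by 0.19. It stood at 6.21 and 6.19 in EtoH, above its 4.54 and 4.46 with VSG22 and its 4.69 on both VSGC12 arrays. Sgk1, a kinase that controls ion transport, differed by -0.25. Tsc22d3 differed by 0.16, with 3.79 and 3.66 for VSG22 and 3.95 and 3.81 for VSGC12, beside 3.70 and 3.69 in EtoH. Dusp1, a MAP kinase phosphatase, differed by 0.21 and Per1, a clock repressor, by -0.02. Nr3c1 itself stood at 3.04 and 2.97 with VSG22 and at 3.02 and 2.86 with VSGC12, a difference of -0.07. Not all of the 30 listed genes stood above EtoH. Against EtoH, 11 were called higher and 4 lower with VSG22 (background 15.1% and 15%). With VSGC12 these were 9 and 4 (background 16.2% and 18.6%).

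A wider set of genes that differ from EtoH was then taken from the Dex and FF arrays, which the comparison of VSGC12 with VSG22 does not contain. 962 genes were called at an adjusted p under 0.05 in both Dex and FF against EtoH and moved at least 2-fold the same way in both. For the 528 genes higher in both, the median against EtoH was 1.61 with VSG22 and 1.67 with VSGC12, and for the 434 lower in both it was -1.55 and -1.63. At an adjusted p under 0.05, 432 of the 528 were higher than EtoH with VSG22 (background 15.1%) and 480 with VSGC12 (background 16.2%). Of the 434, 400 were lower with VSG22 (background 15%) and 420 with VSGC12 (background 18.6%). All these comparisons share the EtoH arrays.

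Set directly against each other, the 2 compounds differed by a median of -0.04 on the genes higher in Dex and FF, with -0.03 on slide 1 and -0.04 on slide 2. On the genes lower in Dex and FF the median was -0.05, with -0.01 and -0.07 on the slides. At an unadjusted p under 0.05, 33 of the 528 had VSGC12 higher (6.25%) and 42 lower (7.95%), and of the 434, 24 were higher (5.53%) and 39 lower (8.99%). Over all genes the shares were 3.17% higher and 3.7% lower, so both lists held more such genes in both directions. The lists were called with the same spread per gene that enters these p-values. List and p-value are therefore not independent, and these shares are only a description. The direction of these medians depended on the scaling: with the array median subtracted they were 0.09 and 0. It also depended on 1 library, since without Dex replicate 1 the list of higher genes changed and its median was 0.20.

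**Figure D2:**
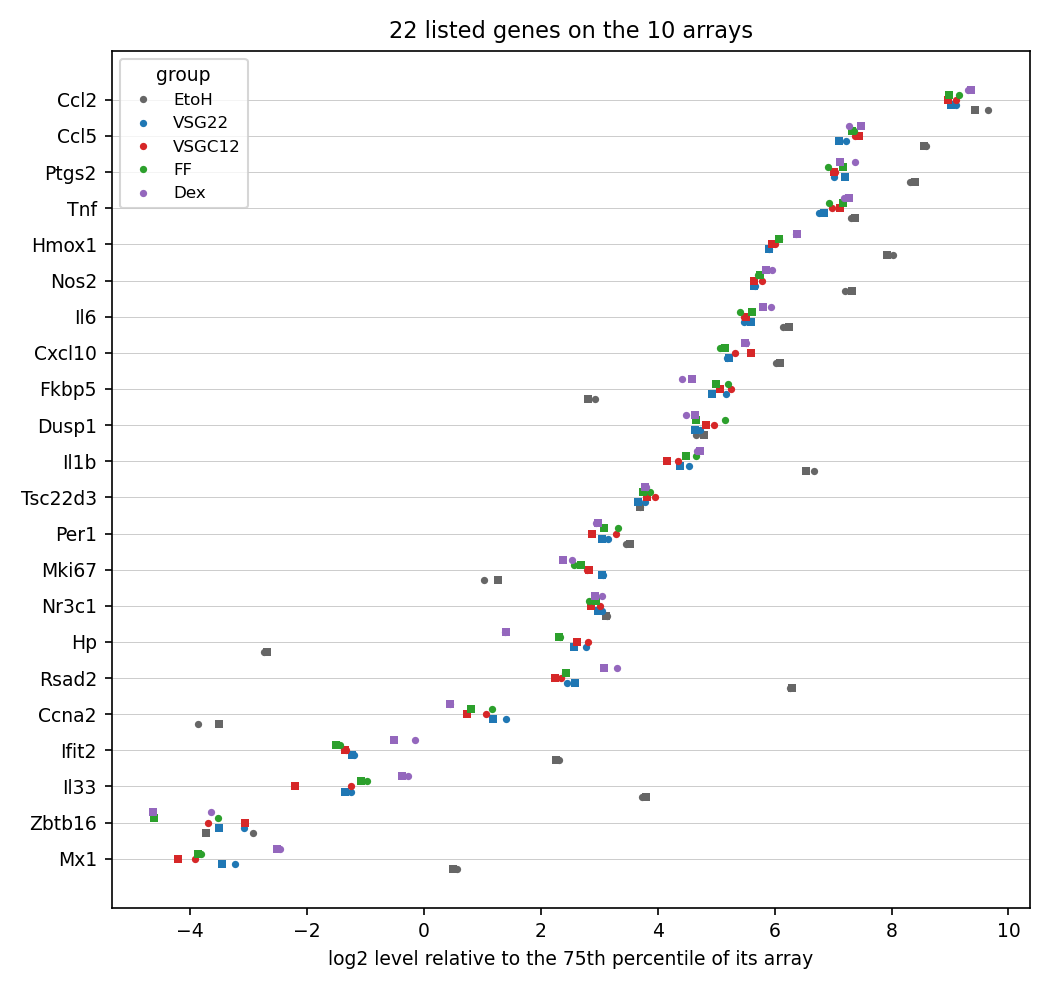
Levels (log2, relative to the 75th percentile of the array) of 22 listed genes on all 10 arrays, circles for replicate 1 and squares for replicate 2, coloured by group. VSG22 (blue) and VSGC12 (red) lie side by side for most genes, and both are far from EtoH (grey) for Hp, Fkbp5, Ccna2, Il33, Rsad2, Ifit2 and Mx1.

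The 22 genes in the plot of listed genes mix glucocorticoid targets, inflammatory and interferon genes and cell cycle genes. At an unadjusted p under 0.05, 2 of these 22 had VSGC12 higher and 1 lower, beside 3.17% and 3.7% of all genes. Of the 22, 0 were called and 19 had an interval within 2-fold. Among the inflammatory ones, Il6, the cytokine of the acute-phase response, stood at 5.47 and 5.59 with VSG22 and at 5.47 and 5.51 with VSGC12, and its difference was -0.04 (interval -0.29 to 0.21). Nos2, the inducible nitric oxide synthase, differed by 0.06 and Ptgs2, the inducible cyclooxygenase, by -0.09. Ccl2, a monocyte chemoattractant, differed by -0.02. The values of these 4 genes overlapped between the compounds.

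Some inflammatory genes had arrays that did not overlap. Il1b, the inflammasome-processed cytokine, stood at 4.53 and 4.38 with VSG22 and at 4.34 and 4.16 with VSGC12, a difference of -0.21. Tnf stood at 6.76 and 6.84 with VSG22 and at 6.98 and 7.12 with VSGC12, a difference of 0.25. Ccl5, a T cell and monocyte chemoattractant, stood at 7.22 and 7.10 with VSG22 and at 7.37 and 7.44 with VSGC12. Its difference was 0.24 ± 0.09 (unadjusted p = 0.033 in limma, adjusted p = 0.72). Cxcl10, an interferon-induced chemokine, differed by 0.25 (unadjusted p = 0.049). VSGC12 was thus lower for Il1b and higher for Tnf, Ccl5 and Cxcl10, each by less than 1.2-fold and none past the adjusted threshold. Ccl12, the chemokine with the smallest p, was 1.49-fold lower: -0.58, with -0.16 on slide 1 and -0.99 on slide 2 (unadjusted p = 0.018 in limma). Il1a (-0.22) and Csf1 (-0.29) were also lower, and Tnfsf9 (0.22) was higher. Of 25 cytokine genes, 8 did not overlap with VSGC12 lower and 5 with it higher. Of 15 chemokine genes these were 5 and 3. Arrays that do not overlap were common: 3738 genes (20.7%) had both VSGC12 arrays above both VSG22 arrays and 4436 (24.6%) both below.

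Over lists, 25 pro-inflammatory cytokine genes had a median difference of -0.03, 15 chemokine genes -0.02, 31 inflammatory enzymes and effectors 0.01, and 36 genes of the NF-kB pathway -0.04. Of the cytokine list 1 gene was higher and 3 lower at an unadjusted p under 0.05, of the chemokines 2 and 1, of the enzymes and effectors 1 and 1, and of the NF-kB pathway 2 and 1. As shares, 12% of the cytokines were lower and 13.3% of the chemokines higher, beside 3.7% and 3.17% of all genes, on lists this short 3 and 2 genes. Tnfsf15, 1 of these 3 cytokines, was not well above background on any of the 4 arrays. Of the 25 cytokine genes, 18 were well above background on all 4. Each of these 4 medians was above 0 in at least 1 scaling and below 0 in another.

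The type I interferon response, in which signalling through STAT factors induces antiviral genes, had 33 of 49 measured members below 0 (67.3%, beside 54.2% of all genes), with a median of -0.10. At an unadjusted p under 0.05, 4 members were lower (8.16%, beside 3.7% of all genes) and 0 higher (beside 3.17%). Mx1, an antiviral GTPase, stood at -3.23 and -3.46 with VSG22 and at -3.91 and -4.20 with VSGC12, with 0.56 and 0.50 in EtoH. Mx1 was well above background on both VSG22 arrays but on 1 VSGC12 array. The difference was -0.71 ± 0.12, with -0.68 on slide 1 and -0.73 on slide 2 (unadjusted p = 0.00076 in limma, adjusted p = 0.72). Oas2, an antiviral oligoadenylate synthetase, stood at 4.85 and 4.93 with VSG22 and at 3.93 and 4.67 with VSGC12, so its difference of -0.59 came largely from VSGC12 replicate 1. Rsad2 (viperin) differed by -0.23 and Ifit2, which binds viral RNA, by -0.14. The list median was -0.02 without VSGC12 replicate 2, and it ran from -0.12 to -0.05 over the scalings.

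The clearest shared pattern lay in the cell cycle. Of 69 measured genes of the cell cycle and DNA replication lists, 64 were lower with VSGC12 (92.8%, beside 54.2% of all genes). The median difference was -0.22. It was -0.20 on slide 1 and -0.26 on slide 2, and 60 of the 69 (87%) were below 0 on both slides, beside 32.7% of all genes. At an unadjusted p under 0.05, 22 of the 69 were lower (31.9%, beside 3.7% of all genes) and 0 higher. Both VSGC12 arrays lay below both VSG22 arrays for 51 of them, beside 24.6% of all genes. None passed the adjusted threshold, and the smallest adjusted p was 0.72. The 69 genes were read on the same 4 arrays and are not independent replicates, so these counts are a description. The lists were also chosen with earlier results of these data known.

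The difference was small beside the change from EtoH. The median level of the 69 genes was 0.33 and 0.28 in EtoH, 2.20 and 2.16 with VSG22, 2.05 and 1.90 with VSGC12, 2.07 and 1.88 with FF, and 1.66 and 1.65 with Dex. Against EtoH, 65 of the 69 were called higher with VSG22 (background 15.1%) and 61 with VSGC12 (background 16.2%). The group mean of VSG22 was the highest of the 5 groups for 61 of the 69 genes, and that of VSGC12 lay between EtoH and VSG22 for 63.

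By role, the differences covered regulators, mitosis and replication alike. E2f8, an atypical E2F repressor that closes the S-phase programme, stood at 0.63 and 0.48 with VSG22 and at 0.19 and -0.05 with VSGC12, a difference of -0.49 ± 0.14; on 1 of these arrays its spot lay among at least 3 neighbours well above background there and on no array of another group. Cdc20, the activator of the anaphase-promoting complex, stood at 3.76 and 3.58 with VSG22 and at 3.39 and 3.31 with VSGC12, a difference of -0.32 ± 0.09 (unadjusted p = 0.0084 in limma). Top2a, the topoisomerase that untangles replicated DNA, stood at 1.31 and 1.28 with VSG22 and at 1.01 and 0.84 with VSGC12, a difference of -0.37 ± 0.11. For each of the 3 genes the compounds' arrays did not overlap.

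Ccna2, the cyclin of S and G2 phase, stood at 1.40 and 1.18 with VSG22 and at 1.07 and 0.73 with VSGC12, and its interval from -0.83 to 0.05 included 0. Mki67, the proliferation marker Ki-67, differed by -0.25 and the spindle factor Tpx2 by -0.27. In replication, the polymerase subunit Pola1 stood at 2.20 and 2.11 with VSG22 and at 1.84 and 1.68 with VSGC12, a difference of -0.39 ± 0.10 (unadjusted p = 0.0073). The histone chaperone subunit Chaf1a differed by -0.33, the ribonucleotide reductase subunit Rrm1 by -0.31 and the Fanconi anemia gene Fanca by -0.26. The 5 members above 0 were Tyms (0.65), Cdk1 (0.20), Cdk2 (0.09), Orc1 (0.08) and Ccne1 (0.05), which were picked out after their values were seen.

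**Figure D3:**
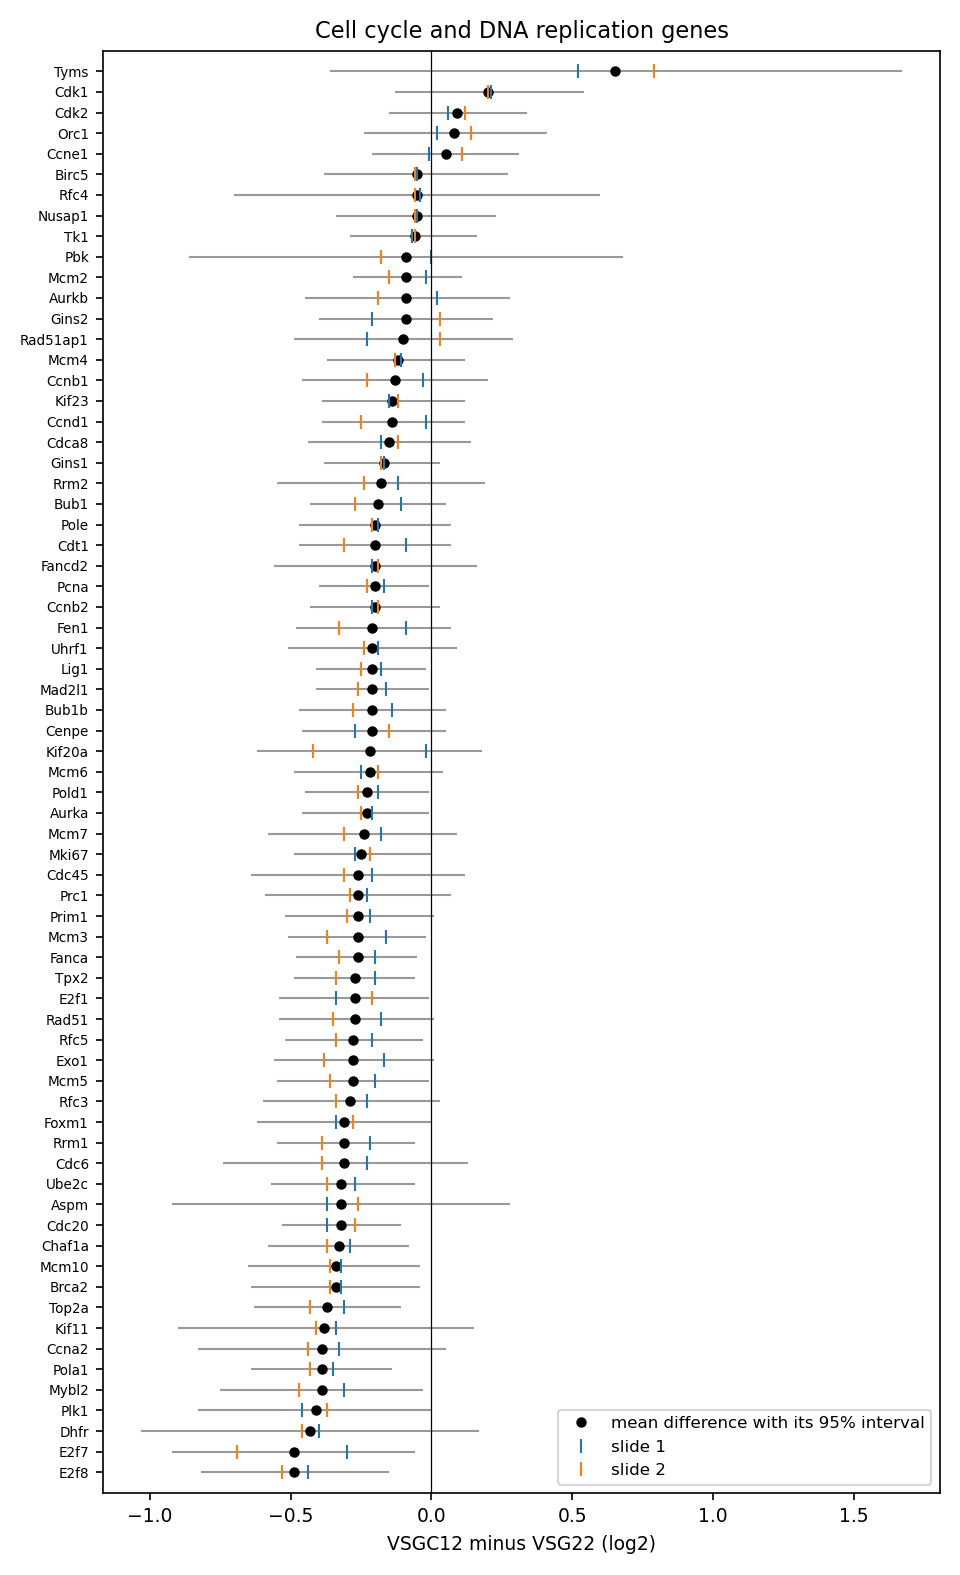
VSGC12 minus VSG22 (log2) for the 69 cell cycle and replication genes, as the mean difference (black) with its 95% interval (grey line) and the value on slide 1 (blue) and slide 2 (orange). Of the 69 genes, 64 lie below 0, and 67 intervals stay within 2-fold in either direction.

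Of these 69 genes 12 had another probe well above background on the 4 arrays. For 9 of the 12 (75%) the mean of the other probes had the same sign, beside 61.7% of all 3563 genes with such a probe. The median stayed below 0 in each scaling, from -0.17 with the array median subtracted. Its size depended on 1 library: without VSGC12 replicate 2 it was -0.14, and without VSGC12 replicate 1 it was -0.30. Of 15 reference genes, 10 were above 0 and 4 were higher at an unadjusted p under 0.05 (26.7%, beside 3.17% of all genes), with a median of 0.04 that was -0.05 in quantile normalization. In bulk RNA fewer dividing cells and less of each transcript per cell cannot be told apart.

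Promoter windows of RefSeq genes (GRCm38.p6, 250 bases before to 50 after the start) were searched on both strands for the cell-cycle homology element TTTGAA. It was in the window of 18 of the 54 cell cycle and replication genes that could be matched (33.3%), of 15.0% of the 9908 matched genes tested and of 17.9% of all windows. It was also in 28.9% of the matched interferon genes, in 27.4% of those higher in both Dex and FF, and in 15.2% of those with VSGC12 lower at an unadjusted p under 0.05. The element was thus not particular to the cell cycle list, and it was about as frequent among the genes lower with VSGC12 as among all genes. The 3 stretches shown are the 80 bases before the start site of the named cell cycle genes that hold the element there, with the element in capitals as read on the gene's strand (the element or its reverse complement). A match of letters is a description, not a binding site.
Cdc20 (chr4:118437344-118437423, minus strand): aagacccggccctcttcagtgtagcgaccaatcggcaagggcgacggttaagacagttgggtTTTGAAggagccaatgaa
E2f8 (chr7:48881597-48881676, minus strand): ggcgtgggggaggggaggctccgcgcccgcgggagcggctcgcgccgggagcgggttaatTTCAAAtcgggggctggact
Top2a (chr11:99024190-99024269, minus strand): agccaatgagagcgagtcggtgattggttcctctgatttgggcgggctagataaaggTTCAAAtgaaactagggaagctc

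The element began 18, 20 and 23 bases before the start site in Cdc20, E2f8 and Top2a. The other motifs searched were the single receptor site AGAACA, the full palindromic glucocorticoid response element, the interferon-stimulated response element and the E-box CACGTG. The single receptor site was in 14.6% of the matched genes with VSGC12 lower at an unadjusted p under 0.05, in 17.4% of those with VSGC12 higher and in 15.2% of all matched genes tested. The palindrome was in the window of 1 of the 9908 genes. The interferon element was in 19 of the 38 matched interferon genes and in 3.97% of all matched genes, and the E-box in 7.41% of the cell cycle genes and 11.6% of all.

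**Figure D4:**
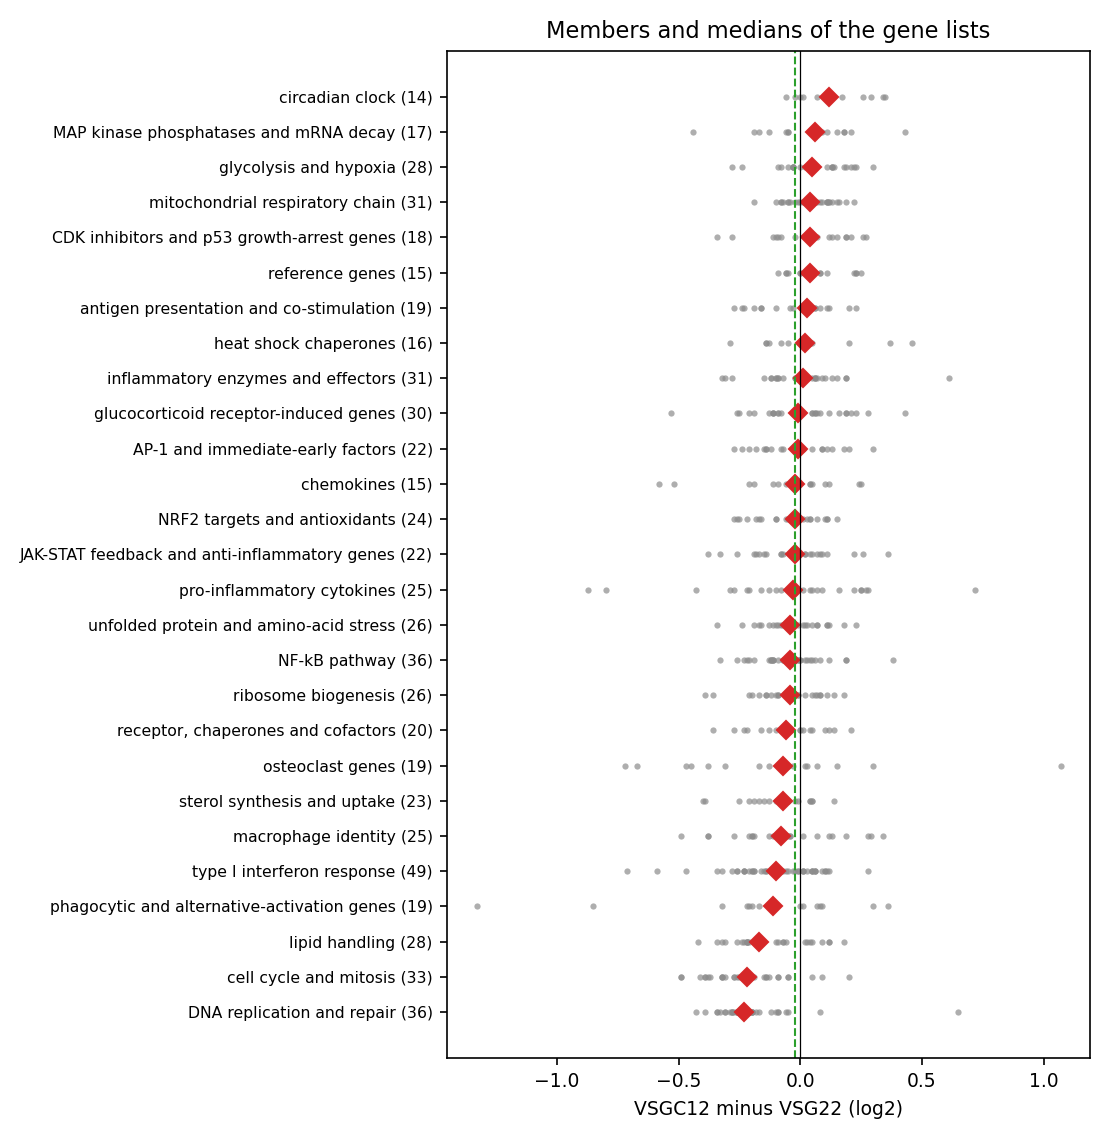
VSGC12 minus VSG22 (log2) for members (grey) and medians (red) of each gene list with at least 10 measured members, the number measured in brackets and the median of all genes as a dashed line. The 2 lists of cell cycle and DNA replication genes have the lowest medians, -0.22 and -0.23, and the circadian clock the highest, 0.12.

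Lipid handling was next, with a median of -0.17 and 20 of 28 genes below 0 (71.4%, beside 54.2% of all genes). At an unadjusted p under 0.05, 2 members were lower (7.14%, beside 3.7% of all genes) and 0 higher. Abca1, the cholesterol exporter, stood at 1.14 and 1.08 with VSG22 and at 0.81 and 0.58 with VSGC12, a difference of -0.42 ± 0.11. Lpl, lipoprotein lipase, stood at 6.43 and 6.31 with VSG22 and at 6.03 and 6.07 with VSGC12, a difference of -0.32. Of the sterol synthesis list 18 of 23 were below 0 (78.3%), with Lss, the cyclase that forms lanosterol, at -0.40. The circadian clock had 11 of 14 genes above 0 and 21.4% below 0, but 0 had an unadjusted p under 0.05 in limma. In the 5 scalings the lipid median ran from -0.19 to -0.07 and the clock median from 0.08 to 0.17.

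Other lists lay closer to 0. The 28 glycolysis and hypoxia genes had a median of 0.05, and Pfkfb3, which makes the main allosteric activator of glycolysis, stood at 6.36 and 6.24 with VSG22 and at 6.58 and 6.64 with VSGC12. The mitochondrial respiratory chain had a median of 0.04 with 21 of 31 genes above 0 and 32.3% below 0, beside 54.2% below 0 of all genes. An unadjusted p under 0.05 was reached by 0 of the 31. In quantile normalization the glycolysis median was -0.03 and the respiratory chain median -0.02. Of the macrophage identity genes, Csf2rb, the shared receptor chain for GM-CSF and IL-3, differed by -0.38 and Itgax (CD11c) by -0.49, while Cd68, a lysosomal glycoprotein, differed by 0.34 and Lyz1, a lysozyme, by 0.29. Mrc1, the mannose receptor, was not well above background on any of the 4 arrays, and no fold is given.

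No gene being called, the single genes named were the 12 with the smallest p in each direction among genes with a current symbol, well above background on the 4 arrays, whose arrays did not overlap. They were selected on this contrast, so their values are a description. The 12 higher genes differed by 0.36 to 0.74 and included Eno2, the neuronal enolase of glycolysis, at 2.50 and 2.51 with VSG22 and at 2.86 and 3.01 with VSGC12. Eno2 stood at 4.51 and 4.46 in EtoH, so VSGC12 lay between VSG22 and EtoH. The others were Zfp781 and Zfp791 (zinc-finger genes), Ube2d2b, Dner, C130026I21Rik, 4933439C10Rik, Gm13889, Tpst1 (a tyrosylprotein sulfotransferase), Rgcc (a regulator of the cell cycle), Klra9 and Trmt11. On 1 of the 4 arrays Ube2d2b lay among at least 3 neighbouring spots that were well above background there and on no array of another group.

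The 12 lower genes differed by -1.49 to -0.37. They were Pign, Ncdn, Ube4b, 5730455P16Rik, Klhdc7b, Steap3, Pfas, Nlrp1c-ps, Ppp1r3d, Adhfe1, Hus1 and Acp5. Pfas, an enzyme of purine synthesis, stood at 1.15 and 1.23 with VSG22 and at 0.78 and 0.67 with VSGC12, with -0.33 and -0.32 in EtoH. Hus1, part of the DNA damage checkpoint clamp, differed by -0.40. Of the 24 genes, 6 had a second probe well above background on the 4 arrays, and for 0 of these did it show at least 0.5 of the difference, with the same sign for 2. The second probe of C130026I21Rik differed by -0.22 beside 0.36 for the first, and that of Steap3 by -0.02 beside -0.37.

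Pign, an enzyme of GPI-anchor synthesis, had the largest of these differences. It stood at -0.05 and 0.19 with VSG22 and at -1.37 and -1.47 with VSGC12, and between -0.67 and 0.81 on the 6 other arrays. The difference was -1.49 ± 0.13, with -1.32 on slide 1 and -1.66 on slide 2 (adjusted p = 0.086 in limma). Ncdn (neurochondrin) differed by -0.78 and Ube4b, a ubiquitin chain elongation factor, by -0.86. The second probes of these 3 genes showed no such difference: -0.02 for Pign, 0.03 for Ncdn and 0.00 for Ube4b. The first 30 bases of both probes are shown because the result turned on which probe was read. The mm9 positions come from the array annotation, and all are on the minus strand.
Pign, differing probe (chr1:107418310-107418369): catgctgtgacacacacacacacacattgc
Pign, other probe (chr1:107454091-107454588): cctggtgtttcttgtaaacagaagctcacc
Ncdn, differing probe (chr4:126420995-126421054): caagttcaaagctgtgcacatgtggacact
Ncdn, other probe (chr4:126421975-126422034): agggaggaggcatcttccctgaagccccca
Ube4b, differing probe (chr4:148702672-148702731): tctgtattaccgctccctacgcaacatact
Ube4b, other probe (chr4:148761325-148772765): agtcttggtctcaatgtccacaacatgacc

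The other probes of Pign and Ube4b span 498 and 11441 bases of genome for 60 bases of probe, so they cross introns. The differing probes of Pign, Ncdn, Ube4b and Acp5 all lie in column 50 of the array, as does that of Klra9, which was higher. Among 139 spots of that column well above background on all 10 arrays, 11 (7.91%) had VSGC12 lower by at least 0.5 on the log2 scale. Of the 11, 10 lay in even rows, which held 70 of the 139. The other columns had at most 4 such low spots each, and 0.768% of their 21747 spots. Column 50 also held 8 spots with VSGC12 higher by at least 0.5 (at most 10 in any column), and its median difference was -0.05. With column 50 left out, an alternative chosen after seeing the data, Pign, Ncdn, Ube4b and Acp5 were read from their other probes. The values were therefore those of these probes: -0.02 for Pign, 0.03 for Ncdn, 0.00 for Ube4b and 0.09 for Acp5, a tartrate-resistant phosphatase of osteoclasts. The cell cycle and replication median was then -0.23.

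**Figure D5:**
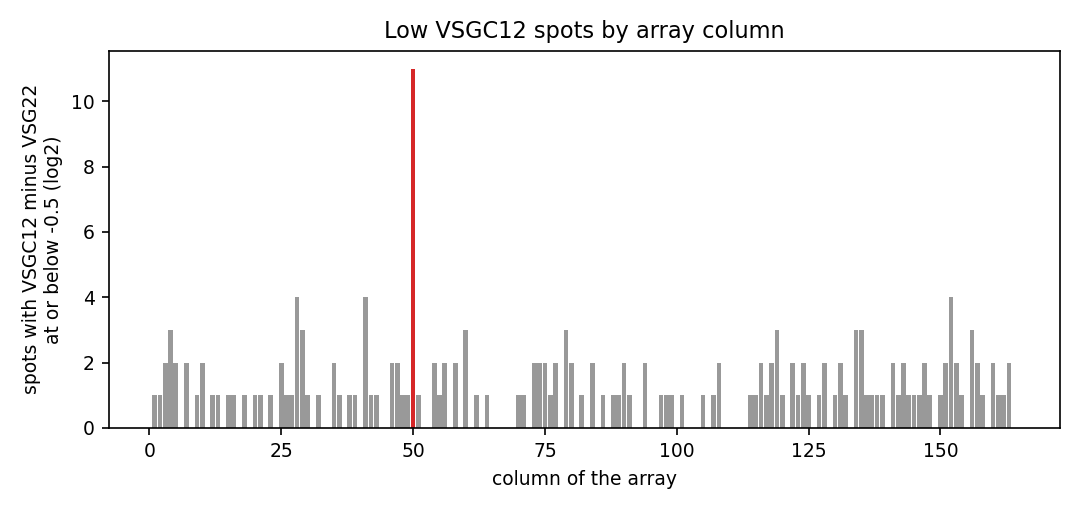
Number of spots per array column, among spots well above background on all 10 arrays, whose VSGC12 minus VSG22 difference was at or below -0.5 (log2). Column 50 (red) holds 11, and the other columns hold at most 4 each.

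The biggest fold differences were on the other side. Of the genes well above background on the 4 arrays, 84 were at least 2-fold higher with VSGC12 on both slides and 1, Pign, was at least 2-fold lower on both. The 84 were chosen on that contrast, so only the arrays outside it add to the description. Pramel34, a PRAME-family gene, stood at 0.39 and 0.66 with VSG22, at 3.32 and 3.38 with VSGC12, at 1.81 and 2.18 in EtoH, at 3.46 and 3.49 with FF and at 3.43 and 5.94 with Dex. Hba-a2, an alpha-globin gene, stood at -1.11 and 0.27 with VSG22, at 1.67 and 2.27 with VSGC12, at 1.75 and 2.92 with FF and at -0.07 and 2.29 with Dex. Myod1, the muscle determination factor, and H19, an imprinted noncoding RNA, were among the 84 with differences of 1.69 and 1.74. These 4 genes were named after their values were seen.

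As a set the 84 genes had median levels of -0.47 and -0.22 in EtoH, -0.51 and 0.35 with VSG22, 1.43 and 1.90 with VSGC12, 1.83 and 2.15 with FF, and 0.79 and 3.65 with Dex. That VSGC12 stood above VSG22 was fixed by how the genes were chosen. Among the other arrays, the median of FF minus EtoH was 1.93, beside -0.02 for all genes detected on the 4 arrays. The Dex replicates stood apart from each other. Dex replicate 2 was at least 2-fold above Dex replicate 1 for 64 of the 71 with both values (90.1%), beside 5.71% of all genes detected on the 4 arrays. VSG22 replicate 2 was at least 2-fold above replicate 1 for 30 of the 84 (35.7%, beside 0.764%). The same was so for 20 of the 84 with VSGC12 (23.8%, beside 1.74%) and 18 of 78 with FF (23.1%, beside 1.06%). In EtoH it was so for 5 of the 84 (5.95%, beside 0.529%). The genes were chosen on the VSG22 and VSGC12 arrays, so the values of these 2 groups are part of that choice. Of the 84, 38 carried a current symbol (45.2%, beside 77.5%), and the median GC content of their probes was 41.7%, beside 43.3%. A second probe well above background was there for 7 of the 84; these probes differed by -0.32 to 0.82, beside 1.04 to 2.58 for the probes that represent the 7 genes. The part of this replicate spread in the 84 differences was not tested.

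A further 156 genes were well above background on both VSG22 arrays and on neither VSGC12 array, and 34 the reverse. The VSGC12 arrays had fewer spots well above background (42.1% and 40.1%) than the VSG22 arrays (43.7% and 41%), and the part of this in the uneven counts was not tested. These genes were chosen on this contrast, so their p-values and bounds are a description. An unadjusted p under 0.05 was reached by 85 of them, beside 6.87% of all genes. Over the 156 and 34 genes together, whatever their p, the bound on the fold was at least 2 for 27. The lowest p was that of a noncoding RNA probe on chromosome 10 (mm9, chr10:118415496-118415555), at -2.48 and -2.90 with VSG22 and between -6.32 and -5.51 on the other 8 arrays. VSG22 was at least 2.06-fold higher there (adjusted p = 0.086 in limma), a gene named after its values were seen. It was high in VSG22 alone, a group through which it passed the filter on signal well above background. Its p and bound therefore only describe that choice.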

How the data were processed

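RNA levels were measured on 10 one-colour arrays. Per the file headers, the deposited files hold intensity values from Agilent Feature Extraction 10.7.3.1 (mean signal, local background and a processed signal, background-subtracted and detrended), not scaled between arrays; the submitters' processing notes list limma without a version. Spots flagged non-uniform or outlying were dropped, replicate spots of each probe averaged after log2 transformation of the processed signal, and each array's 75th percentile over non-control spots subtracted. A gene was represented by its brightest probe, taken from probes that 1 or more groups showed well above background on both arrays (18049 genes; 40.1% to 44.4% of spots per array were well above background). Probes were named through RefSeq tables of GRCm38.p6 (26525 by accession, 3786 by symbol, 716 by synonym; 24654 kept the file's name). Groups were fitted on all 10 arrays with limma 3.58.1 (R 4.3.3; lmFit, eBayes; 5 residual and 1.85 prior degrees of freedom), two-sided, with Benjamini-Hochberg adjustment over all genes and 1 pair of compounds compared. The number of arrays limits the precision.

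Replicate numbers follow the 2 slides. Deviations from the group means correlated between groups by number with r from -0.04 to 0.32 over genes (0.11 between VSG22 and VSGC12), so the number was not taken as a pairing. Named genes were the 12 highest and 12 lowest called genes, filled by smallest p where fewer were called, up to 4 per list by smallest p, and 22 listed genes. The members and lists were chosen with earlier results of these data known. Alternatives were other scalings, background correction, dim-probe filters, probe summaries, subsets of arrays, a replicate block and thresholds. The fit was tested on simulated data. Some items are not reported here.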

Additional observations from a re-analysis of the deposited data

How the results depend on the processing

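The count of called genes, 0 under the main processing, was 11 with the array median subtracted (6 of them higher with VSGC12). Several of the 11 were not well above background on either array of 1 compound. The count was 1 (the chromosome 10 probe) with quantile normalization and 1 (Pramel34) without both Dex arrays. At an adjusted p under 0.1 it was 2 (Pign and the chromosome 10 probe). Leaving out single arrays gave 0 to 1. With the replicate block it was 0, with a smallest adjusted p of 0.28 and 1527 genes at an unadjusted p under 0.05, and it was 0 in the other settings run. The 962 genes called in both Dex and FF were 604 with normexp background correction, and 803 to 1360 with single arrays left out. The median over those higher in both was 0.09 with the array median subtracted, 0.02 at an adjusted p under 0.1, 0.04 for genes taken from Dex alone or from FF alone, and -0.10 to 0.20 with single arrays left out; over those lower in both it was 0 with the array median subtracted and 0 with normexp. The cell cycle and replication median ran from -0.30 to -0.14 and the interferon median from -0.14 to -0.02 with single arrays left out. The causes were not tested. Of 3728 values for 156 named genes, 3693 kept their direction and side of the threshold, 1 passed it and 34, for 20 genes, changed sign without passing it.

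With 2 arrays a group, differences under about 1.24-fold were within the median interval, and a lone array left in a group is assumed to vary like the others. Probes in column 50 were left out only as an alternative added after seeing the data.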
